A study of Mus musculus with 2 samples.

Results

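The amino acid stress and one-carbon genes are 35 genes of the Atf4-type stress response, of serine and folate one-carbon metabolism and of amino acid transport. They, and the other lists used below, were chosen by name, with earlier results of these data known. All 35 genes had at least 1 probe, 46 probes in all, among 36400 gene names and 55674 probes on the arrays. Expression was measured in neural stem and progenitor cells (NSPCs), taken on day 18 as tertiary neurospheres (passage 2). The cells came from mouse ES cells that first formed embryoid bodies. There was 1 array of cells overexpressing the microRNA miR-153 and 1 array of cells labelled as the overexpression control, both on 1 slide. The vector, the strain of the stem cells and the number of cultures behind each RNA are not stated in the labels. With 1 array in each group, no difference given here has a replicate check and none has a p-value.

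When amino acids run short or proteins misfold, kinases phosphorylate the translation factor eIF2, most protein synthesis slows, and the messenger RNA of the transcription factor Atf4 is translated more. Atf4 then switches on genes that make and import amino acids, and others that act in cell death or in restarting translation. Serine made or taken up by a cell gives up a carbon unit to folate, and that unit is used to build nucleotides and methyl donors, so dividing progenitors draw on this pathway. An expression array reads the RNA level and not the translation of Atf4.

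The overexpressed microRNA is shown to identify the agent. The labels name miR-153 without the arm, so both mature arms of the mouse gene are given, from RefSeq on GRCm38.p6 (chromosome 12, plus strand), with the seed, bases 2 to 8, in capitals.
mmu-miR-153-3p: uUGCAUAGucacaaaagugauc
mmu-miR-153-5p: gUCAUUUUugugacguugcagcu

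Most of these genes stood at a lower level in the miR-153 cells than in the control cells, and the size of the difference varied widely between roles. On both arrays 34 of the 35 were well above background. By a fixed 2-fold rule, 16 of the 34 were lower on the miR-153 array, 0 were higher and 18 lay between these limits. The same rule applied to every gene above background on both arrays (20435 genes) called 11.0% lower and 9.23% higher, and among the 13091 matched to RefSeq 9.83% were lower and 11.1% higher. The genes were chosen with earlier results of these data known, so the gap to these shares is not independent of the data. Differences are log2 values, miR-153 minus control, and their median was -0.91 over the 34 genes and -0.11 over all genes. Of the 34, 31 were below 0, against 56.1% of all genes, and 11 of the 34 lay within 1.5-fold. The remaining gene, Slc7a11, cleared background in the miR-153 cells and not in the control cells. In RNA from whole cultures, fewer cells of a type and less RNA per cell cannot be told apart.

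Signals are background-subtracted intensities, and a level is log2 of the signal relative to the 75th percentile of its array, which was 549 units on the miR-153 array and 435 units on the control array. Since the miR-153 array was brighter as a whole, a gene with a slightly higher signal there can have a difference below 0. The scanner software's own error model gave each difference an error of 0.20 to 0.40 on the log2 scale, which covers the spot and not the culture. Different probes of a gene differed by an SD of 0.46 over 3445 genes with several RefSeq-matched probes. Setting the arrays level by their spike-in RNA instead of the percentile added 0.24 to every difference, which put the median of all genes at 0.14, that of the 34 genes at -0.66, and left 14 of them at least 2-fold lower. Spike-in scaling left 25 of the 34 genes below 0. It also turned the split of all genes past 2-fold, of which 64.9% were higher under spike-in scaling and 45.5% in the main setting.

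**Figure D1:**
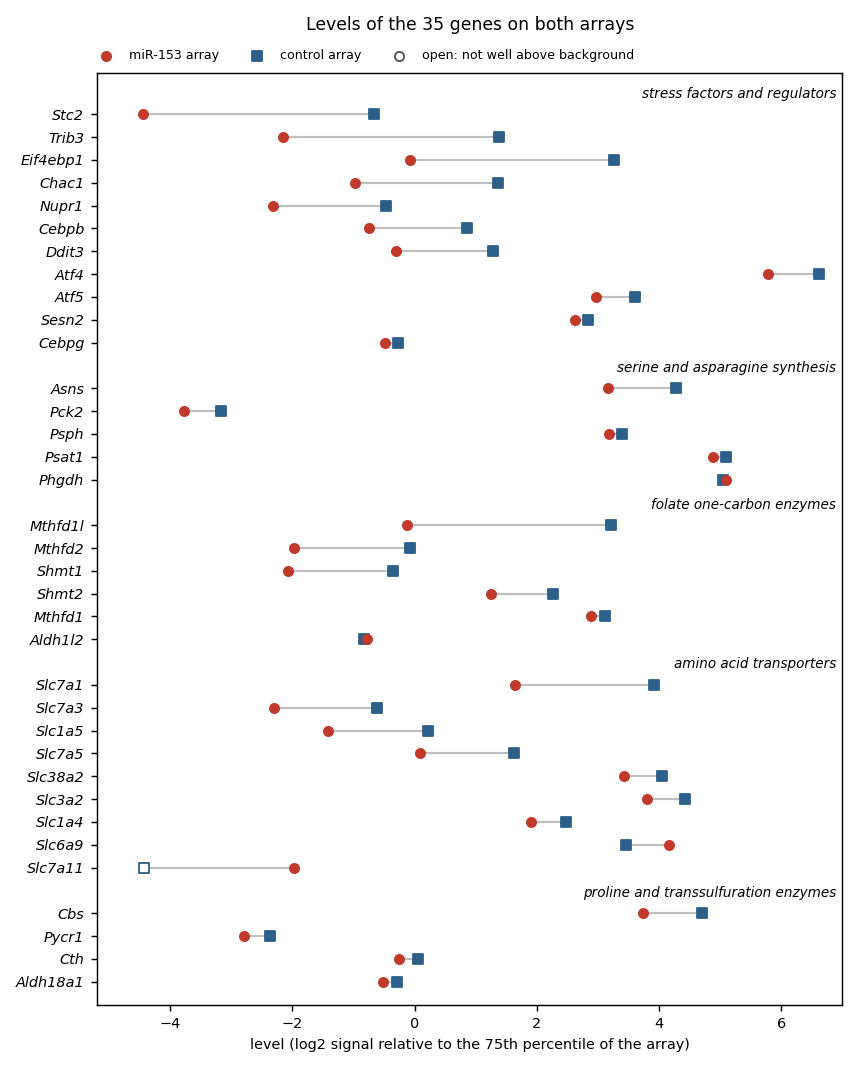
Level of each of the 35 genes on the miR-153 array (circles) and the control array (squares), as log2 signal relative to the 75th percentile of the array, grouped by role and ordered by difference. The longest gaps to the left are those of Stc2, Trib3, Eif4ebp1 and Mthfd1l, the 3 enzymes of serine synthesis proper nearly coincide, and Slc7a11 is the gene with an open square, which did not clear background in the control cells.

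The stress factors and regulators held the largest differences. Of the 11 genes, 7 were at least 2-fold lower on the miR-153 array and 4 lay between, with a median difference of -1.61. By the same rule 11.0% of all genes were lower. Every one of the 11 was below 0 in the main setting, against 56.1% of all genes. Stc2, which encodes the secreted glycoprotein stanniocalcin 2, had a signal of 25.1 on the miR-153 array and 276 on the control array. That is a difference of -3.79, or 13.9-fold lower, on a probe at chr11:31260136-31260195 (mm9, minus strand). The miR-153 signal lay close to the limit of detection, and normexp background correction, which draws dim values together, put the difference at -2.22. Among the 20435 genes, Stc2 ranked 24 from the lowest difference.

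Trib3 had a signal of 123 on the miR-153 array and 1127 on the control array. It encodes a pseudokinase that is induced by Atf4 and restrains it. The gene was 11.6-fold lower (-3.53, or -2.85 with normexp) on a probe at chr2:152163161-152163220 (mm9, minus strand), at rank 36 from the lowest. Eif4ebp1, whose product binds the cap-binding factor eIF4E and holds back translation, had a signal of 523 on the miR-153 array and 4178 on the control array. It was 10.1-fold lower (-3.34) on a probe at chr8:28385887-28385946 (mm9, plus strand). Both genes were bright on the control array and still above background in the miR-153 cells.

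Chac1, an enzyme gene of glutathione breakdown, read 278 on the miR-153 array and 1119 on the control array, a difference of -2.35. Nupr1, a small stress-induced nuclear protein gene, had 110 on the miR-153 array and 313 on the control array (-1.84, or -1.37 with normexp). Ddit3 encodes the stress factor CHOP, and its signal was 443 on the miR-153 array and 1062 on the control array (-1.60). Cebpb, which encodes a C/EBP factor able to pair with Atf4, had 328 on the miR-153 array and 792 on the control array (-1.61). These 4 genes were between 3.03-fold and 5.08-fold lower on the miR-153 array.

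Atf4 itself differed by less than the genes above. Its signal was 30253 on the miR-153 array and 42862 on the control array, a difference of -0.84, and its second probe gave -0.81. The probes lie at chr15:80087902-80087961 and chr15:80086639-80086698 (mm9, plus strand). The direction was the same under all 9 alternatives, but quantile normalization put it at -0.31 and lowess at -0.40. Atf5, which encodes a related factor, was at -0.63 with 4318 on the miR-153 array and 5304 on the control array. Cebpg, another C/EBP partner gene, and Sesn2, whose product restrains the growth kinase mTORC1 when leucine is low, both stood at -0.21 and at 0.03 under spike-in scaling, so neither has a direction here.

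A short motif known as the C/EBP-ATF response element, TGATGNAA, is bound by Atf4 together with a C/EBP partner. It was searched on both strands in RefSeq promoter windows of 300 bases, from 250 before to 50 after the gene start, on GRCm38.p6. Of the 35 genes, 29 had a window, and 8 of these (27.6%) held the motif in at least 1 window, against 4.51% of all 27025 genes with a window. The genes were listed as Atf4-type genes, so this share is not independent of the choice. The stretches in which the motif lies wholly before the gene start are shown because these genes differed in opposite directions, with the motif in capitals on either strand.
Chac1, chr2:119351013-119351092 (GRCm38.p6, plus strand): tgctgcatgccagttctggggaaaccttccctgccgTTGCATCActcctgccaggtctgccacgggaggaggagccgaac
Nupr1, chr7:126625537-126625616 (GRCm38.p6, minus strand): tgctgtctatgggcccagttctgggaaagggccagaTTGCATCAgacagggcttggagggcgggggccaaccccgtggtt
Asns, chr6:7693210-7693268 (GRCm38.p6, minus strand): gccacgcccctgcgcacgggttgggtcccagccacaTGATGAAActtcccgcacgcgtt
Pck2, chr14:55540127-55540206 (GRCm38.p6, plus strand): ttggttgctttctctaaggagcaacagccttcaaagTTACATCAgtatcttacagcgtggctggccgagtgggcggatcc
Pycr1, chr11:120643808-120643887 (GRCm38.p6, minus strand): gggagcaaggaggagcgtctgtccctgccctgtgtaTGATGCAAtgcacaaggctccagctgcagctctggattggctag
Slc7a11, chr3:50443617-50443715 (GRCm38.p6, minus strand): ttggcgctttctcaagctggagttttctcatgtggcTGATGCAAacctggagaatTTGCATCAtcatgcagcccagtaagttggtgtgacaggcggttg

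Slc7a11 held 2 copies of the motif in opposite orientation and was the one of these genes at a higher level in the miR-153 cells. Trib3 and Slc1a4 held the motif too, after the gene start in Trib3 and across it in Slc1a4. Both arrays measured 7 of the genes with a match, and 4 of the 7 were at least 2-fold lower (Trib3, Chac1, Nupr1 and Asns), with a median difference of -1.11. Of the 21 measured genes with a window and no match, 8 were at least 2-fold lower, with a median of -0.63. Genes with no window are in neither group. Eif4ebp1, Slc7a3, Slc7a5 and Slc1a5 among them were also at least 2-fold lower, and Aldh1l2 and Cth were not. By the same rule 11.0% of all genes were lower. Whether the motif goes with the difference was not tested. A match is a run of letters in this window and does not show binding, and no binding was measured.

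The genes for serine synthesis differed little between the arrays, as did Cebpg and Sesn2 among the stress factors. Phgdh, Psat1 and Psph encode the 3 enzymes of serine synthesis from a glycolytic intermediate. Phgdh had a signal of 18710 on the miR-153 array and 14438 on the control array, a difference of 0.04, and its second probe gave -0.14. Psat1 had 16228 on the miR-153 array and 14805 on the control array (-0.20), with a second probe at 0.27. Psph had 4973 on the miR-153 array and 4560 on the control array (-0.21), with a second probe at -0.06. All 3 differences were smaller than the SD between probes of a gene, and the sign of each turned under at least 1 alternative.

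Asns, which makes asparagine from aspartate and glutamine and is a classic Atf4 target, was the 1 gene of synthesis past the 2-fold rule. Its signal was 4905 on the miR-153 array and 8401 on the control array, a difference of -1.11, and it fell short of 2-fold under spike-in scaling (-0.87) and lowess (-0.94). Pck2, the mitochondrial enzyme gene that makes phosphoenolpyruvate, was dim. Its probe had 8 usable repeat spots, with signals of 33.1, 40.7 and 54.9 on the miR-153 array (lowest, median and highest) and 40.6, 48.7 and 56.9 on the control array. The ranges overlapped, while all 8 spots gave a difference below 0, with a mean of -0.61 ± 0.29 (SD between spots of 1 array pair, n = 8 spots). Repeat spots share 1 RNA sample, so this SD is technical.

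Among the 6 folate one-carbon enzymes, 4 were at least 2-fold lower on the miR-153 array, against 11.0% of all genes. The other 2 lay between, and the median was -1.37. Mthfd1l, the mitochondrial enzyme gene that releases formate for use in the cytosol, had a signal of 506 on the miR-153 array and 4037 on the control array. It was 10.1-fold lower (-3.33) on a probe at chr10:6190563-6190622 (mm9, minus strand). A second probe, at chr10:6198416-6198475, read 117 on the miR-153 array and 815 on the control array, and its difference was -3.14. Mthfd1l ranked 48 from the lowest of the 20435 genes. Mthfd2, which acts just before it in mitochondria, had 140 on the miR-153 array and 412 on the control array (-1.89, or -1.47 with normexp).

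Serine hydroxymethyltransferases take the carbon unit from serine. Shmt2, the mitochondrial form, had 1302 on the miR-153 array and 2098 on the control array (-1.02), just past the rule, and was at -0.78 under spike-in scaling and -0.98 with normexp. Shmt1, the cytosolic form, had 131 on the miR-153 array and 339 on the control array (-1.71), but its second probe gave -0.86, the widest gap between probes among these genes. Mthfd1, which handles the same folate steps in the cytosol, had 4042 on the miR-153 array and 3755 on the control array, a difference of -0.23 that was 0.01 under spike-in scaling. Aldh1l2, the mitochondrial enzyme gene that oxidises the carbon unit to CO2, had 319 on the miR-153 array and 244 on the control array (0.05, with no direction since normexp turned its sign). Of this relative pair, the mitochondrial Mthfd1l was thus among the lowest differences of the array and the cytosolic Mthfd1 was not.

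**Figure D2:**
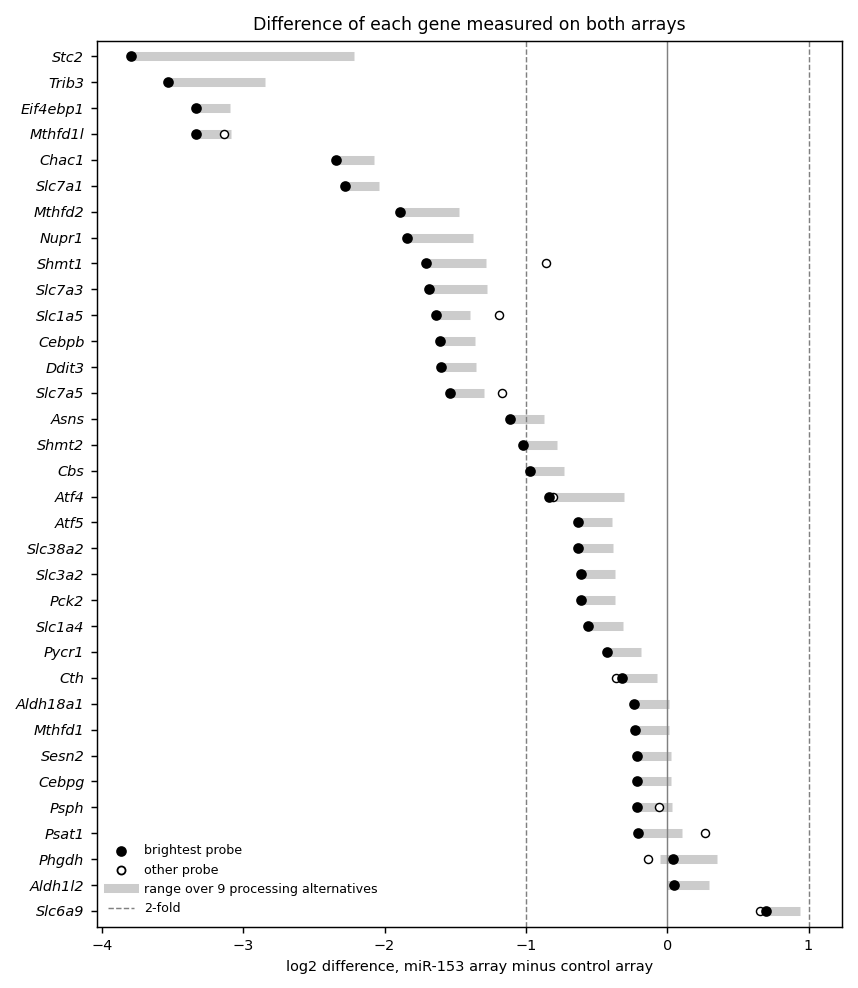
Log2 difference, miR-153 array minus control array, of the 34 genes measured on both arrays (filled points, brightest probe, with other probes open), with the range over the 9 processing alternatives as a grey bar and 2-fold as dashed lines. The points run from -3.79 (Stc2) to 0.70 (Slc6a9), and 14 of the 16 genes past 2-fold stay past it over the whole bar, the exceptions being Asns and Shmt2.

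Amino acid transporters went in both directions. Both arrays measured 8 of the 9, with a median of -1.08. The rule called 4 of the 8 lower and 0 higher and left 4 between, against 11.0% lower and 9.23% higher among all genes. Slc7a1, the main importer gene for arginine and lysine, had a signal of 1706 on the miR-153 array and 6575 on the control array, a difference of -2.28 on a probe at chr5:149139957-149140016 (mm9, minus strand). Slc7a3, another importer gene for cationic amino acids, had 111 on the miR-153 array and 283 on the control array (-1.68). Slc7a5, the light chain gene of the exchanger for large neutral amino acids, had 580 on the miR-153 array and 1336 on the control array (-1.54), with a second probe at -1.17. Slc1a5, a glutamine carrier gene, had 204 on the miR-153 array and 504 on the control array (-1.64), with a second probe at -1.19.

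The remaining transporter genes at a lower level differed by less than 2-fold. Slc38a2, a carrier gene for small neutral amino acids that is induced by amino acid shortage, was at -0.63, with 5875 on the miR-153 array and 7198 on the control array. Slc3a2, the heavy chain gene shared by the Slc7a5 and Slc7a11 exchangers, was at -0.61, with 7699 on the miR-153 array and 9320 on the control array. Slc1a4, a carrier gene for alanine, serine and cysteine, was at -0.56, with 2065 on the miR-153 array and 2409 on the control array. These 3 were below 0 under every one of the 9 alternatives and past 2-fold under none.

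A pair of transporter genes stood at a higher level in the miR-153 cells. Slc7a11, whose product exchanges cystine for glutamate and feeds glutathione synthesis, had a signal of 140 on the miR-153 array and 20.3 on the control array, where the spot did not clear background. On its probe at chr3:50169700-50169759 (mm9, minus strand) the bound was 5.18-fold higher in the miR-153 cells. That bound is taken against the lowest control level well above background (-4.34). Some control spots that did not clear background read above that level, such as Pou5f1 at -4.18, so the bound is approximate. With normexp the bound was 1.92-fold, short of the 2-fold rule. Slc6a9, a glycine transporter gene, had 9842 on the miR-153 array and 4800 on the control array, a difference of 0.70, and its second probe, which overlaps the first, gave 0.66. Its difference lay between 0.68 and 0.94 over the alternatives, above 0 but short of 2-fold.

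The 4 enzymes of proline synthesis and transsulfuration all lay between the 2-fold limits, with a median of -0.37. Cbs, which joins homocysteine and serine into cystathionine, came nearest, with 7319 on the miR-153 array and 11376 on the control array (-0.97, or -0.73 under spike-in scaling). Cth, which cleaves cystathionine to cysteine, was at -0.32, with a second probe at -0.36. Pycr1, the mitochondrial enzyme gene for the last step to proline, was dim at 79.4 on the miR-153 array and 84.6 on the control array (-0.43), and its other probe cleared background on neither array. Aldh18a1, which starts proline synthesis from glutamate, was at -0.23 and at 0.01 under spike-in scaling.

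Other genes of the same response can be read against the 11.0% of all genes called lower and the 9.23% called higher. Of 10 genes for the eIF2 kinases, the eIF2 alpha subunit, the regulators of its phosphorylation and Atf3, 1 was at least 2-fold lower on the miR-153 array, 0 were higher and 9 lay between, with a median of -0.43. The lower share was near that of all genes. The 1 lower gene was Atf3, a stress-induced factor gene that lies downstream of the kinases, with 197 on the miR-153 array and 1132 on the control array (-2.86). Among 13 other genes reported as Atf4 targets and measured on both arrays, the rule called 5 lower and 2 higher and left 6 between, and the median was -0.53. Gdf15, a secreted stress hormone gene, was at -3.80, with 25.0 on the miR-153 array and 275 on the control array. Its miR-153 signal lay close to the limit of detection, like that of Stc2. Ddit4, an inhibitor gene of mTORC1, was at -2.32, and Slc43a1, a leucine transporter gene, at -2.03. Fgf15, a growth factor gene of the embryonic brain, was at 2.73 in the other direction.

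The remaining genes of the same metabolism are described beside the same shares of all genes, 11.0% lower and 9.23% higher. Of 18 other folate and methionine cycle genes, the rule called 4 lower and 2 higher and left 12 between, and the median was 0.00. Tyms (-1.81), which makes thymidylate, and Ahcy (-1.51), of the methionine cycle, were among the lower, while Folr1, a folate receptor gene, was higher (2.34). Of 21 other amino acid transporters, the rule called 2 lower and 3 higher and left 16 between, close to the shares of all genes, and the median was -0.06. Slc38a4 was at -3.17 and Slc43a1 at -2.03, while the glutamate carrier gene Slc1a1 was at 1.88 and Slc7a8, a partner gene of Slc3a2, at 1.64. Of 16 other glutamate, glutamine and proline genes, 1 was lower, the glutaminase gene Gls2 (-2.73), 0 were higher and 15 lay between, and all 4 glycine cleavage genes lay between. Gpt2 and Slc43a1 are each on a pair of these lists.

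**Figure D3:**
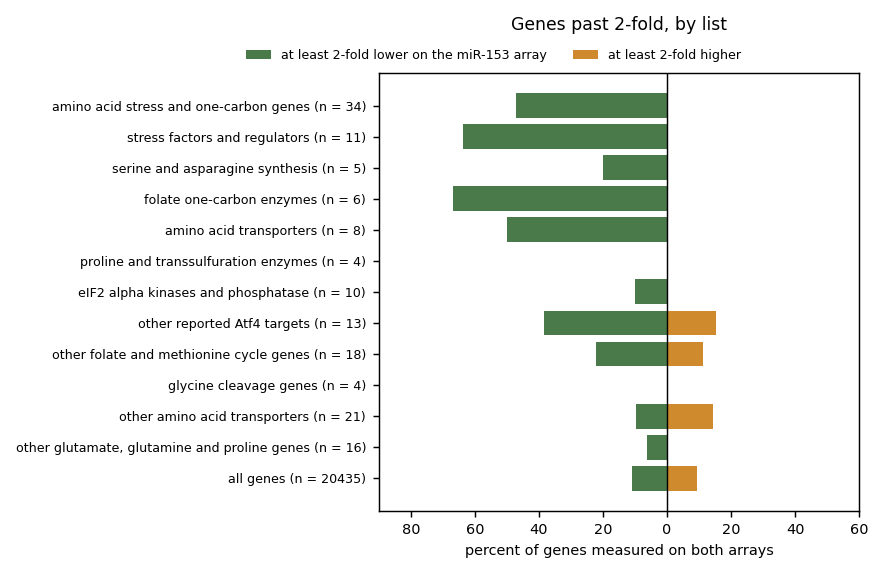
Percent of the genes above background on both arrays that passed the 2-fold rule, lower (bars to the left) or higher (bars to the right) in the miR-153 cells, for the amino acid stress and one-carbon genes, their roles, other genes of the pathway and all genes. Stress factors and regulators (7 of 11) and folate one-carbon enzymes (4 of 6) have the longest bars to the left, against 11.0% of all genes.

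Some other gene groups also differed between the arrays, against 11.0% of all genes called lower and 9.23% called higher by the same rule. Summed signals in this paragraph are not scaled for array brightness, and the miR-153 array was brighter as a whole. All 10 markers of the labelled cells were well above background on both arrays, 3 of them at least 2-fold higher and 0 lower. Their summed signal was 401190 on the miR-153 array and 318355 on the control array. Their median difference, which is scaled, was 0.17, and 4 of the 10 were below 0. Of 8 genes of proliferating cells, 8 were at least 2-fold lower, with a summed signal of 24543 on the miR-153 array and 80373 on the control array and a median difference of -2.31. Of 9 measured genes of the low-oxygen response, 9 were lower, with 10046 on the miR-153 array and 52612 on the control array and a median of -2.70. Neuron markers had 7 of 13 higher and 3 lower (119478 on the miR-153 array and 65193 on the control array), and oligodendrocyte lineage markers 5 of 8 higher and 1 lower (43062 on the miR-153 array and 11757 on the control array). Fibroblast and mesenchymal markers had 4 of 7 higher and 1 lower, with sums of 5161 on the miR-153 array and 2876 on the control array. Pluripotency markers had 3 of 5 lower, with sums of 2194 on the miR-153 array and 3712 on the control array, and Pou5f1 did not clear background in the control cells. Astrocyte markers had 1 of 6 higher, and 6 of 7 blood and endothelial markers cleared background on neither array. The part of these groups in the differences of the amino acid stress and one-carbon genes was not tested.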

How the data were processed

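The authors deposited scanner intensities from 1-colour Agilent arrays, which the submitters' processing notes credit to Agilent Feature Extraction, version 10.7.3.1, and an intensity table in which each column equals the processed signal divided by 485 (miR-153 array) or 381 (control array). That table is linear and not centred, with a median of 0.0614 for the miR-153 array and 0.0662 for the control array. From the processed signal, log2 was taken and the 75th percentile of 59305 non-control spots of each array subtracted. Outlier-flagged spots (229, of which 2 were spots of Pck2) were left out of both arrays, repeat spots were averaged, and no spot was saturated. Genes are named by the file, and the brightest probe over both arrays stands for a gene. Well above background were 55.6% of non-control spots on the miR-153 array and 52.5% on the control array.

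The 2-fold rule is a size, not a test. A gene well above background on 1 array has a bound, its level against the higher of its own level and the lowest level well above background on the other array (-4.94 miR-153, -4.34 control). The number of arrays limits the precision. The members and lists were chosen with earlier results of these data known; every member is named, and at most 4 genes past 2-fold per other list, where some genes so chosen are not named here. Alternatives were normexp (limma 3.58.1 in R 4.3.3, offset 50), quantile and spike-in scaling, lowess, the deposited table, mean of probes, no filter, bright genes only, names by accession, and other fold rules. The steps were tested on simulated data. Probe positions are on mm9 per the file headers, and promoters and microRNAs on GRCm38.p6. For 6 of the genes no promoter window was used, and no 3′ ends were searched for miR-153 sites.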

Additional observations from a re-analysis of the deposited data

How the results depend on the processing

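The 16 genes past 2-fold kept their direction under each of the 9 alternatives that gave a value, and 14 stayed past 2-fold, with Asns and Shmt2 as the exceptions. Of the 18 short of 2-fold, 0 passed it under any of these, and 8 had a sign that turned (Aldh18a1, Aldh1l2, Cebpg, Mthfd1, Phgdh, Psat1, Psph and Sesn2). The count of genes at least 2-fold lower lay between 14 and 16 under the 2-fold rule with all 9 alternatives but 1. With bright genes only it was 7 of 19, with 2 of 5 stress factors, 2 of 3 folate enzymes and 2 of 6 transporters. Without that filter it was 16 of 34, so many of the genes called lower were dim. Of all genes, 8.89% were lower with bright genes only and 11.0% in the main setting. The count was 22 with a 1.5-fold rule and 13 with a 3-fold rule. Shares of all genes under the 1.5-fold and 3-fold rules are not given here. Counts under those rules therefore have no background to be read against. The median ranged from -0.91 to -0.63. With no filter on dim probes 1 gene, Slc7a11, was at least 2-fold higher, and 1, Slc6a9, with a 1.5-fold rule. Serine and asparagine synthesis had 0 lower under spike-in scaling, lowess and the 3-fold rule and 2 with the 1.5-fold rule, and proline and transsulfuration enzymes had 1 with the 1.5-fold rule. Over all genes, normexp gave 1528 lower and 1199 higher, and spike-in scaling 1533 lower and 2839 higher, against 2258 and 1886 in the main setting. The cause of these shifts was not tested. Genes near background, such as Stc2, Slc7a11, Pck2 and Gdf15, are the least certain. No paired analysis was possible because each group has 1 array, and for the same reason no replicate could be left out.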
